A study of Mus musculus with 8 samples.

Results

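Calcium-activated potassium channels open when the calcium concentration inside the cell rises and let K+ leave it. The genes described here are the 8 whose symbol in the deposited read-count table is Kcnn1, Kcnn2, Kcnn3, Kcnn4, Kcnma1, Kcnmb1, Kcnmb2 or Kcnmb4, out of 54532 genes listed. The rule takes them by name and uses no measured value, although earlier results of these data were known when the group was proposed. Transcripts were counted by RNA-seq in enamel organs of wt C57BL/6 first molars at P5, the secretory stage in which ameloblasts lay down the enamel matrix, and at P12, the maturation stage in which that matrix mineralizes. No pup was treated, and age is the only difference between the groups that the labels give. Tissue of 5 pups was pooled for a library, after soft tissue had been removed from the pulp chambers. Each age has 4 such pools, which carry the numbers 1, 3, 4 and 5 at P5 and 1 to 4 at P12, and every SD below is over the 4 pools of an age.

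Kcnn1, Kcnn2 and Kcnn3 encode the small-conductance (SK) channels and Kcnn4 the intermediate-conductance (IK) channel KCa3.1. Neither kind senses calcium itself, since calmodulin bound to the channel does so. Kcnma1 encodes the pore of the large-conductance (BK) channel, which answers to both calcium and voltage, and the Kcnmb genes encode the beta subunits that tune it, with beta1 best known from smooth muscle, beta2 as an inactivating subunit and beta4 from neurons. SK channels are best known from neurons, and the IK channel from red cells, lymphocytes and secretory epithelia, where K+ leaving the cell helps to drive anion secretion.

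The stretch of 60 coding bases most alike in Kcnn4, Kcnn1 and Kcnn3 is shown for the calmodulin-binding region, which is common to the family. The stretch belongs to the part of the gene known to encode that region, which was not located from these data. The stretch was found by comparing every codon-aligned window of Kcnn4 with the other genes without gaps, in GENCODE M21 transcripts (GRCm38). The window lies in 1 exon in each gene. Capitals mark bases that differ from Kcnn4. Kcnn1 shared 55 of the 60 bases with Kcnn4, and Kcnn3 shared 49.
Kcnn4, coding bases 847 to 906, chr7:24381685-24381744, forward strand: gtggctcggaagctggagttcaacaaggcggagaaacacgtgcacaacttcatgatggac
Kcnn1, coding bases 1216 to 1275, chr8:70848796-70848855, reverse strand: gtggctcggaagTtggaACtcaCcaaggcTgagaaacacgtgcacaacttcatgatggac
Kcnn3, coding bases 1627 to 1686, chr3:89652051-89652110, forward strand: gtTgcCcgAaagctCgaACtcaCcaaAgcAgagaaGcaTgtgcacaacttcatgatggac
Even so, no run of 50 bases in the annotated transcripts of any of the 8 genes occurred in another of the 8. Runs that did occur in transcripts of further genes made up at most 1.19% of any member, for Kcnmb4.

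Total counts ran from 16574548 to 20262601 per pool at P5, and at P12 from 17588152 to 22013456. A floor of 3 counts, which covers counting error only, corresponds to 0.136 to 0.181 CPM. The stage labels were checked by marker genes. At P12 4 of 4 secretory markers (Enam, Mmp20, Ambn, Amelx) were lower, while 5 of 5 maturation markers (Klk4, Amtn, Odam, Slc24a4, Wdr72) were higher. The libraries also hold RNA of other cells. The 5 keratins of oral mucosa summed to 443 to 869 normalized counts at P5 but to 4065 to 32927 at P12, and the low P12 value was that of replicate 4. In P5 replicate 5 the maturation markers summed to 12880, against 36789 to 44228 in the other P5 libraries. Odam and Amtn made up most of these sums. Klk4, Amtn, Odam and Slc24a4 were each lowest in P5 replicate 5. Wdr72 stood there at 199, within the 192 to 308 of the other P5 libraries. In such bulk samples, fewer cells of a type and less RNA per cell cannot be told apart. The labels do not say that the replicate numbers mark a litter or a batch, and p-values measure the spread between these pools.

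Kcnn4 carried most of the signal of this group and rose further, and Kcnmb2, a BK beta subunit, came up from near absence. At an adjusted p-value under 0.05, 2 members were higher at P12 (Kcnn4 and Kcnmb2) and 2 were lower (Kcnn2 and Kcnma1), of 7 that had enough counts to be tested. Kcnmb1 did not pass the filter on low counts. Among all 16440 genes tested, 57.2% passed the same threshold, 28.8% higher and 28.4% lower, so the share of members that did was near the background. Kcnmb2 and Kcnn2 passed the filter only through the age at which they were high, so that a difference between the ages was a condition of their being tested. The median log2 fold change was 0.17 over the 7 tested members and 0.01 over all genes tested. These and the adjusted p-values below come from the quasi-likelihood test of edgeR, adjusted by Benjamini-Hochberg across all genes tested, and a normalized count is a count divided by the library's effective size and scaled to the mean of these sizes. Leaving out P5 replicate 5 and P12 replicate 4 together also gave 2 higher and 2 lower.

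**Figure D1:**
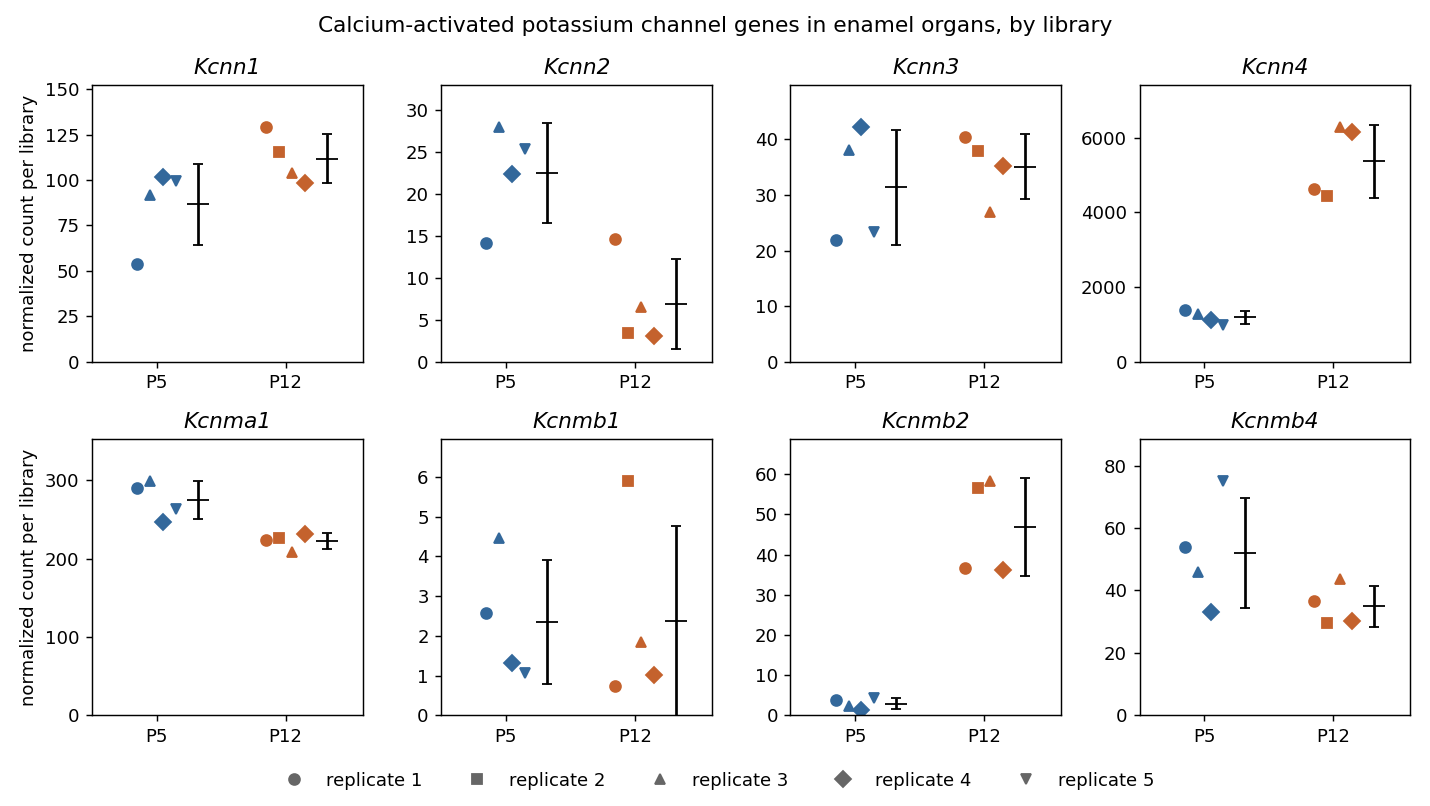
Normalized counts of the 8 genes in each of the 8 libraries, with P5 in blue and P12 in orange, a symbol for each replicate number, and the mean ± SD of 4 libraries in black beside them. Each panel has its own vertical axis from 0, and the libraries of the ages do not overlap for Kcnn4, Kcnma1 and Kcnmb2.

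Kcnn4 (ENSMUSG00000054342, GRCm38 chromosome 7, 24370263 to 24386690, forward strand) shares no exonic base with another annotated gene. P5 pools 1, 3, 4 and 5 had 1376, 1291, 1114 and 995 normalized counts, and P12 pools 1 to 4 had 4610, 4443, 6278 and 6149. Every P12 library stood above every P5 library, and at P12 replicates 3 and 4 were above replicates 1 and 2. Means were 1194 ± 172 (SD) at P5 against 5370 ± 978 (SD) at P12, 4.50 times as high. This is a log2 fold change of 2.17 (standard error 0.14, 95% interval 1.86 to 2.48, adjusted p = 2.4e-07, edgeR). A two-sided exact permutation test gave p = 0.0286, the smallest it can give for 4 pools against 4. In all, 3 of the 8 members had no overlap between the ages, Kcnn4 and Kcnmb2 higher and Kcnma1 lower. Among all genes tested that share was 52.5%, with 26.0% higher and 26.6% lower at P12. Over all 18 alternative fits the Kcnn4 log2 fold change lay between 2.02 and 2.54.

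Markers of other cells known to hold the IK channel were set beside this rise. Of 7 red cell genes 2 were lower at P12 and none was higher, and their sums were 19420 to 38133 at P5 against 18985 to 23457 at P12. Of 6 tested leukocyte genes 4 were higher, and the sum of all 7 listed ranged from 790 to 1151 at P5, and at P12 from 1296 to 1737. In P12 replicates 1 to 4 that sum was 1724, 1737, 1363 and 1296, where Kcnn4 stood at 4610, 4443, 6278 and 6149. The keratins of oral mucosa were also lowest in replicate 4, at 4065 against 20797 to 32927 in the other P12 libraries, and Kcnn4 stood there at 6149. Without P12 replicate 4 the log2 fold change of Kcnn4 was 2.09 (adjusted p = 3.1e-08, edgeR). That fit keeps the P12 libraries with the higher keratin and leukocyte sums, so it cannot show the part of those cells. The maturation ameloblast markers summed to 44228, 36789, 37803 and 12880 in pools 1, 3, 4 and 5 of P5. In pools 1 to 4 of P12 they summed to 356963, 442551, 458253 and 482565, and Odam made up most of each of these sums. The part of any of these cells in the rise was not tested.

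The 250 bases before the RefSeq start of Kcnn4 (GRCm38.p6) are printed because this gene rose and its start in RefSeq is also its first annotated base in the deposited table. The window lies at chr7:24370013-24370262 on the forward strand and holds no annotated exon of the gene. Capitals mark an E-box (CANNTG), which begins 133 bases before the start, and a GC box (GGGCGG, here on the opposite strand), which begins 14 bases before it.
Kcnn4: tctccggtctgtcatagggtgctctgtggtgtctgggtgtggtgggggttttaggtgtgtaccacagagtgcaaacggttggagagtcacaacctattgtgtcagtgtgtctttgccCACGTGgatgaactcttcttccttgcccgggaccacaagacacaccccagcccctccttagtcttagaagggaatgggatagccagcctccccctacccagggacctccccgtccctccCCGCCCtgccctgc
On both strands, 66.2% of the 32817 RefSeq promoter windows of this length held an E-box and 32.7% a GC box. The Kcnn4 window held no AP-1 motif (TGANTCA), CRE (TGACGTCA) or TATA box (TATAAA), which 6.75%, 1.55% and 12.4% of all windows held.

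The SK genes were far lower. Kcnn1 (ENSMUSG00000002908, chromosome 8, 70842049 to 70863258, reverse strand) was at 54.0, 91.7, 101.5 and 99.5 normalized counts in pools 1, 3, 4 and 5 of P5 and at 129, 116, 104 and 98.4 in pools 1 to 4 of P12. P5 replicate 1 was the low library, and P12 replicate 4 lay within the P5 range. Its log2 fold change of 0.37 (standard error 0.20, 95% interval -0.08 to 0.81) did not pass the test (adjusted p = 0.14, edgeR). Scaled by total count alone it was 0.74 with an adjusted p of 0.0091, or 0.36 above the median of all genes, which that scaling shifted to 0.38.

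Kcnn2 (ENSMUSG00000054477, chromosome 18, 45268860 to 45686024, forward strand), the SK2 channel gene, fell at P12. Pools 1, 3, 4 and 5 of P5 had 11, 25, 17 and 24 counts, or 14.1, 27.9, 22.4 and 25.4 after normalization. Pools 1 to 4 of P12 had 20, 4, 7 and 3 counts, or 14.7, 3.38, 6.49 and 3.01 after normalization. P12 replicate 1 was slightly above P5 replicate 1, so the ages overlapped, while the other P12 libraries were below all P5 libraries. Its log2 fold change was -1.64 (standard error 0.47, 95% interval -2.67 to -0.62, adjusted p = 0.010, edgeR), and the exact permutation test gave a two-sided p of 0.0571. The summed counts were 77 at P5 and 34 at P12, a ratio of 0.322 after scaling, with an exact 95% counting interval of 0.209 to 0.488. Without P12 replicate 1, the highest P12 library, the log2 fold change was -2.37 (adjusted p = 0.0010). With only the 6 libraries numbered 1, 3 and 4, the adjusted p was 0.063. Antisense A330093E20Rik shares 284 of the exonic bases of Kcnn2 and had at most 4 counts in a library. The pseudogene AC121957.1, on the opposite strand, shares 323 of them. It is not listed in the deposited read counts, so its reads could not be checked. Together 8.13% of the exonic bases of Kcnn2 in GENCODE M21 are shared.

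Neuronal genes moved with Kcnn2 between the ages. Of 7 neuronal markers 5 were lower at P12 and none was higher, and their sums were 2548 to 3994 at P5 against 1161 to 1298 at P12. Within P5 both Kcnn2 and the neuronal sum were lowest in replicate 1. Within P12 the neuronal sum was lowest in replicate 1, at 1161, where Kcnn2 was highest, but it reached only 1298 in the others. Tubb3 and Stmn2 made up most of that sum and were highest in replicates 1 and 2. Snap25, Elavl3, Elavl4, Rbfox3 and Syt1 were each highest in P12 replicate 4, where Kcnn2 was lowest. Of 5 tested skeletal muscle markers 4 were lower, and all 7 listed summed to 547 to 1059 at P5 against 298 to 363 at P12. The part of neuronal or muscle RNA in the fall of Kcnn2 was not tested.

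Kcnn3 (ENSMUSG00000000794, chromosome 3, 89520164 to 89675132, forward strand), the SK3 channel gene, stood at 21.9, 38.0, 42.2 and 23.3 normalized counts in pools 1, 3, 4 and 5 of P5 and at 40.3, 38.0, 26.9 and 35.1 in pools 1 to 4 of P12. The ages overlapped throughout. The log2 fold change of 0.17 (standard error 0.28) did not pass the test (adjusted p = 0.62, edgeR), and its 95% interval of -0.44 to 0.78 leaves room for a change in either direction. SK3 is also known from endothelium. Of 7 endothelial markers 6 were higher at P12 and their sums were 2962 to 3449 at P5 against 5310 to 5702 at P12. The Kcnn3 means differed by less than the spread between libraries. The part of endothelial RNA in the Kcnn3 counts was not tested.

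Kcnma1 (ENSMUSG00000063142, chromosome 14, 23289431 to 24014491, reverse strand), the BK pore gene, was slightly lower at P12. Pools 1, 3, 4 and 5 of P5 had 291, 299.6, 247 and 264 normalized counts, and pools 1 to 4 of P12 had 224, 226, 208 and 232. The P12 libraries all lay below the P5 libraries, by a small margin. The mean was 275 ± 24.4 (SD) at P5 but 223 ± 10.02 (SD) at P12, and the log2 fold change was -0.30 (standard error 0.10, 95% interval -0.51 to -0.09, adjusted p = 0.017, edgeR). The exact permutation test gave its smallest two-sided p, 0.0286. This call depends on single libraries and on the scaling. The adjusted p was 0.053 without P5 replicate 3 and 0.056 without P12 replicate 3, with log2 fold changes of -0.27 in both. Scaled by total count alone the log2 fold change was 0.068 (adjusted p = 0.56), or -0.31 relative to the all-gene median of that fit. An antisense transcript, 4930519K11Rik, shares 5.98% of the exonic bases of Kcnma1 and had at most 5 counts in any library.

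Kcnmb2 (ENSMUSG00000037610, chromosome 3, 31902507 to 32200180, forward strand) had the largest log2 fold change of the 7 members tested. Pools 1, 3, 4 and 5 of P5 had 3, 2, 1 and 4 counts, close to the floor of 3, which became 3.86, 2.24, 1.32 and 4.23 after normalization. Pools 1 to 4 of P12 had 50, 67, 63 and 36 counts, which became 36.7, 56.5, 58.4 and 36.1. Every P12 library was far above every P5 library, and P12 replicates 2 and 3 were above replicates 1 and 4. Its log2 fold change was 3.93 (standard error 0.38, 95% interval 3.09 to 4.77, adjusted p = 5.8e-06, edgeR). The ratio of the summed counts, 216 at P12 to 10 at P5, was 15.8 after scaling, with an exact 95% counting interval of 8.41 to 33.3. The exact permutation test gave its smallest two-sided p, 0.0286. Kcnmb2 shares no exonic base with another annotated gene.

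Markers of several cell types rose with Kcnmb2 between the ages. All 5 maturation ameloblast markers were higher at P12. So were 6 of 7 endothelial, 5 of 8 vascular smooth muscle and pericyte and 4 of 6 tested leukocyte markers. No secretory ameloblast, red cell, neuronal or skeletal muscle marker was called higher. The keratins of oral mucosa were all higher at P12. Their sums were 27710, 32927, 20797 and 4065 in P12 replicates 1 to 4, where Kcnmb2 stood at 36.7, 56.5, 58.4 and 36.1. All 5 osteoclast markers were higher too, summing to 1034 to 1678 at P5. In P12 replicates 1 to 4 they summed to 6379, 7936, 4968 and 3177. Without P12 replicate 4 and P5 replicate 5, Kcnn4 and Kcnmb2 were the 2 members called higher. That fit keeps the P12 libraries with the higher keratin and osteoclast sums, so it cannot show the part of those cells. The part of any of these cell types in the rise of Kcnmb2 was not tested.

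Kcnmb4 (ENSMUSG00000054934, chromosome 10, 116417861 to 116473878, reverse strand) read 54.0, 45.8, 33.0 and 75.1 normalized counts in pools 1, 3, 4 and 5 of P5, against 36.7, 29.5, 43.6 and 30.1 in pools 1 to 4 of P12. P5 replicate 5 was the highest and P5 replicate 4 lay within the P12 range. The log2 fold change of -0.58 (standard error 0.27, 95% interval -1.17 to 0.02) did not pass the test (adjusted p = 0.091, edgeR), although without P5 replicate 4 it was -0.74 with an adjusted p of 0.034. The antisense genes Kcnmb4os1 and Kcnmb4os2 share 10.7% and 20.8% of its exonic bases and had up to 8 and up to 24 counts in a library. How strand was used in counting is not given in the sources used here, so that reads of Kcnmb4 and of these genes cannot be told apart.

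Kcnmb1 (ENSMUSG00000020155, chromosome 11, 33963013 to 33973641, forward strand), which encodes the beta1 subunit of smooth muscle, was barely present. Pools 1, 3, 4 and 5 of P5 had 2, 4, 1 and 1 counts, and pools 1 to 4 of P12 had 1, 7, 2 and 1. A change was not detectable at this depth, since the ratio of the summed counts after scaling was 1.003 with an exact 95% counting interval of 0.368 to 2.87. Of 8 markers of vascular smooth muscle and pericytes 5 were higher at P12, and the sums were 3367 to 3932 at P5 against 9375 to 10786 at P12. The pericyte genes Rgs5, Cspg4 and Pdgfrb rose by 1.47, 1.83 and 1.96 on the log2 scale (adjusted p = 2.6e-08, 3.8e-07 and 2.1e-07, edgeR). Of the contractile smooth muscle genes, Acta2 and Cnn1 rose by 0.71 and 1.31 (adjusted p = 0.0015 and 0.0026), while Myh11, Tagln and Lmod1 had log2 fold changes of 0.37, 0.07 and -0.13 that did not pass the test.

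**Figure D2:**
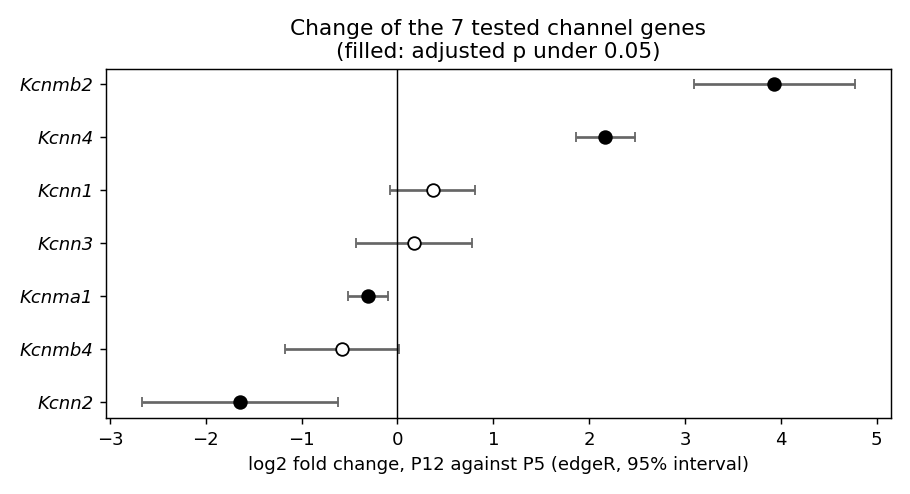
Log2 fold change of P12 against P5 for the 7 members that were tested, from edgeR, with 95% intervals as bars and filled points where the adjusted p was under 0.05. The intervals of Kcnmb2 and Kcnn4 lie above 0, those of Kcnn2 and Kcnma1 below 0, and those of Kcnn1, Kcnn3 and Kcnmb4 include 0.

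Levels of different genes can be compared only per length, and for this the normalized count was divided by the deposited gene length in kilobases. On this scale Kcnn4 stood first at both ages, at 233 ± 33.6 (SD) per kilobase at P5 and 1049.9 ± 191 (SD) at P12. At P5 it was followed by Kcnn1 at 18.9, Kcnma1 at 16.2 and Kcnmb4 at 15.6 per kilobase, whose ranges overlapped between neighbours. Kcnn2 at 3.07 and Kcnn3 at 2.998 came next and overlapped as well, as did Kcnmb2 at 0.931 and Kcnmb1 at 0.562. At P12 Kcnn1, at 24.4 per kilobase, was apart from the next gene. Kcnmb2 then moved from place 7 to place 3, at 15.003, overlapping with Kcnma1 at 13.1, which overlapped with Kcnmb4 at 10.5. Kcnn3 at 3.36 was apart from both neighbours, and Kcnn2 at 0.940 overlapped with Kcnmb1 at 0.567. With the longest annotated transcript as the length, Kcnmb2 stood at place 5 at P12, at 16.1 per kilobase, below Kcnmb4 at 21.5 and Kcnma1 at 18.4, and at P5 Kcnmb4 at 31.97 and Kcnn1 at 21.4 traded places. The other 6 genes kept their place at each age.

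Within the Kcnn genes, Kcnn4 made up 94.5%, 90.2%, 88.2% and 87.7% of the summed level per kilobase in pools 1, 3, 4 and 5 of P5. In pools 1 to 4 of P12 it made up 96.4%, 96.7%, 97.9% and 97.9%. No P12 pool came within the P5 range. Of the level of all 8 members, Kcnn4 took 74.3% to 84.1% at P5 against 92.4% to 95.3% at P12, and the other 7 genes shared the rest.

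A ratio of 2 genes within a library hardly depends on how libraries are scaled to each other. Each beta subunit gene was therefore set against Kcnma1, with a pseudocount of 1. The log2 ratio of Kcnmb2 to Kcnma1 took values of -5.91, -6.54, -6.74 and -5.66 in pools 1, 3, 4 and 5 of P5 and of -2.58, -1.98, -1.82 and -2.65 in pools 1 to 4 of P12. Its mean was higher by 3.95 at P12, with no overlap (exact permutation test, two-sided p = 0.0286, or 0.0476 after Benjamini-Hochberg adjustment over 5 comparisons of this kind). Since Kcnmb2 was higher and Kcnma1 lower in every P12 pool, the separation of this ratio and its p-value were fixed by the single genes. The log2 ratio of Kcnmb4 to Kcnma1 averaged -2.44 ± 0.47 (SD) at P5 and -2.65 ± 0.32 (SD) at P12, within the spread between libraries (exact permutation test, p = 0.486). That of Kcnmb1 to Kcnma1 averaged -6.47 ± 0.53 (SD) and -6.28 ± 0.90 (SD), on very few counts (exact permutation test, p = 0.743). These ratios are of counts not divided by length, so each was compared only between the ages.

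The ratio of the IK to the BK pore gene combines the changes of both genes. The log2 ratio of Kcnn4 to Kcnma1 took values of 2.24, 2.10, 2.17 and 1.91 in pools 1, 3, 4 and 5 of P5 and of 4.35, 4.29, 4.91 and 4.72 in pools 1 to 4 of P12. It was higher by 2.46 at P12, with each of the 4 P12 pools above the P5 range (exact permutation test, two-sided p = 0.0286, or 0.0476 after the same adjustment). Since Kcnn4 was higher and Kcnma1 lower in every P12 pool, this separation and its p-value were fixed by the single genes. They are not a further result.

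**Figure D3:**
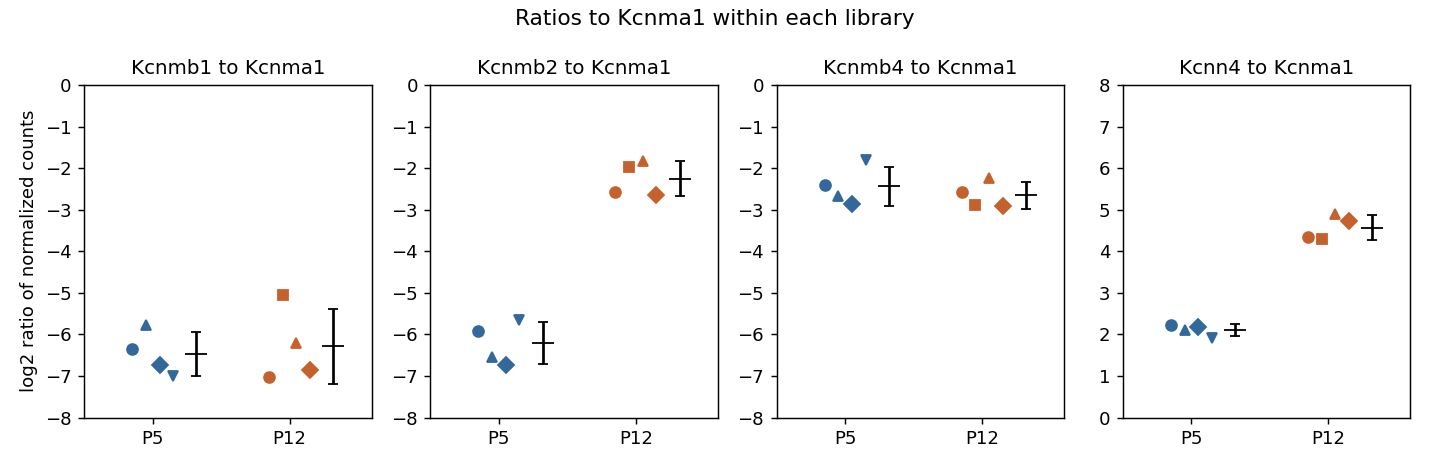
Log2 ratio of the normalized counts of Kcnmb1, Kcnmb2, Kcnmb4 and Kcnn4 to those of Kcnma1 in each library, with P5 in blue and P12 in orange, a symbol for each replicate number as in the plot of the members, and the mean ± SD of 4 libraries in black. The ages are apart for Kcnmb2 and Kcnn4 and overlap for Kcnmb1 and Kcnmb4.

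Calmodulin is the calcium sensor of the SK and IK channels, and its genes were the first of the lists around these channels. Of 5 calmodulin and calmodulin-like genes described here 4 were tested, and 3 were higher and none lower at P12. Among all genes tested 28.8% were higher and 28.4% lower, the background for this list and those that follow. The median log2 fold change of 2.02 was raised by the calmodulin-like genes Calml3 and Calm4. Calm3 rose by 0.23 on the log2 scale (adjusted p = 0.0070, edgeR). Calm2 had a log2 fold change of -0.21 that did not pass the test (adjusted p = 0.053). DESeq2 and limma-voom each called 1 calmodulin gene lower, and so did the fits without P5 replicate 5 or P12 replicate 4.

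The calmodulin-like genes Calml3 and Calm4, known from stratified epithelium and skin, had the largest rises of this list, with log2 fold changes of 4.57 (adjusted p = 9.6e-06) and 3.82 (adjusted p = 3.3e-04). At P12 Calml3 was at 2054, 2608, 2024 and 486 in libraries 1 to 4, and Calm4 at 812, 1067, 844 and 96.4. Both were lowest in replicate 4, the library in which the keratins of oral mucosa were lowest. Calm5 had at most 1 count in any library.

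Among 11 known regulators of SK and IK channels, all tested, 6 were lower and none was higher at P12, with a median log2 fold change of -0.20. The list was not divided by whether a product supports or inhibits the channels, so this count says nothing of their activity. Over all genes tested, 57.2% passed in either direction and 28.4% were lower. Pik3c2b, a lipid kinase whose product supports KCa3.1 activity, fell from 3033 ± 205 (SD) normalized counts at P5 to 263 ± 19.96 (SD) at P12, a log2 change of -3.53 (adjusted p = 1.3e-10). Trim27, a ubiquitin ligase that acts on Pik3c2b, fell with -0.93 (adjusted p = 9.3e-06). Nme2, a histidine kinase that activates KCa3.1, had -0.76 (adjusted p = 0.019) on a mean of 48.5 and 28.5 normalized counts, and 48.9% of its exonic bases are shared with Gm20390, so its count is uncertain. The subunit Csnk2a2 of casein kinase 2, which acts on calmodulin at SK channels, had -0.23 (adjusted p = 0.0064). Scaled by total count alone, 5 of the 11 were called higher and 2 lower, and so the count rests on the scaling.

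The next list held BK gamma subunit genes, relatives of Kcnma1 and Kcnmb3. Of 8 gamma subunits and relatives of Kcnma1, 5 were tested, 2 were higher and 2 lower. Kcnt1, a sodium-activated relative, fell from 74.8 ± 33.5 (SD) normalized counts at P5 to 10.5 ± 9.65 (SD) at P12, a log2 change of -2.88 (adjusted p = 8.3e-04, edgeR). Lrrc38, a gamma subunit gene, fell from 24.7 to 9.75, with -1.34 (adjusted p = 0.0040). Kcnt2 and Lrrc55 were higher by 0.70 and 0.51 on the log2 scale (adjusted p = 0.040 and 0.045), and neither call held throughout, since between 0 and 1 genes of this list were called higher with any single library left out. Lrrc55, a gamma subunit gene, stood at 66.8 ± 7.41 (SD) normalized counts at P5 and 94.9 ± 20.2 (SD) at P12. Kcnu1 had -0.69 (adjusted p = 0.10). Lrrc26, the gamma subunit gene of secretory glands, had at most 4 counts in a library, Kcnmb3 at most 1 and Lrrc52 0 in all 8.

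Of 7 known regulators of BK channels 4 were higher and 1 was lower at P12, with a median log2 fold change of 0.26. Cav1, the caveolar scaffold, rose by 0.98 on the log2 scale (adjusted p = 6.8e-05). Prkg1, the cGMP-dependent kinase that activates BK channels, rose by 0.75 (adjusted p = 0.0076) and Pde5a, which breaks down cGMP, by 0.37 (adjusted p = 0.0033). Dtna, a dystrobrevin, had -0.27 (adjusted p = 0.023), and with total count scaling or without P5 replicate 1, P5 replicate 3, P12 replicate 2 or P12 replicate 3 no gene of this list was called lower.

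The genes that supply calcium to such channels moved in both directions. Of 18 listed, 17 were tested, and 7 were higher and 7 lower, with a median log2 fold change of -0.20. Itpr1 and Itpr2, receptors that release calcium from the endoplasmic reticulum, moved in opposite directions, Itpr1 from 10583 ± 1076 (SD) normalized counts down to 1219 ± 141 (SD) and Itpr2 from 337 ± 67.2 (SD) up to 2093 ± 276 (SD). Their log2 fold changes were -3.12 (adjusted p = 2.5e-09) and 2.64 (adjusted p = 4.9e-08, edgeR). The voltage-gated calcium channel gene Cacna1d fell by 4.10 on the log2 scale (adjusted p = 1.9e-10) and Ryr2, a ryanodine receptor, fell by 2.01 (adjusted p = 7.5e-04).

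Of 12 genes whose products work beside potassium channels in epithelial ion transport, 11 were tested, and 4 were higher and 3 lower, with a median log2 fold change of 0.41. Cftr, the cyclic-AMP-activated anion channel, rose by 2.39 on the log2 scale (adjusted p = 1.6e-06), Kcnj15 by 1.71 (adjusted p = 5.2e-07) and Ano1, the calcium-activated chloride channel, by 0.80 (adjusted p = 1.2e-06). Atp1b1, a subunit of the sodium pump, fell by 1.38 (adjusted p = 0.0032), and it shares 18.7% of its exonic bases with Nme7. Without P12 replicate 4, 5 genes of this list were called lower.

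**Figure D4:**
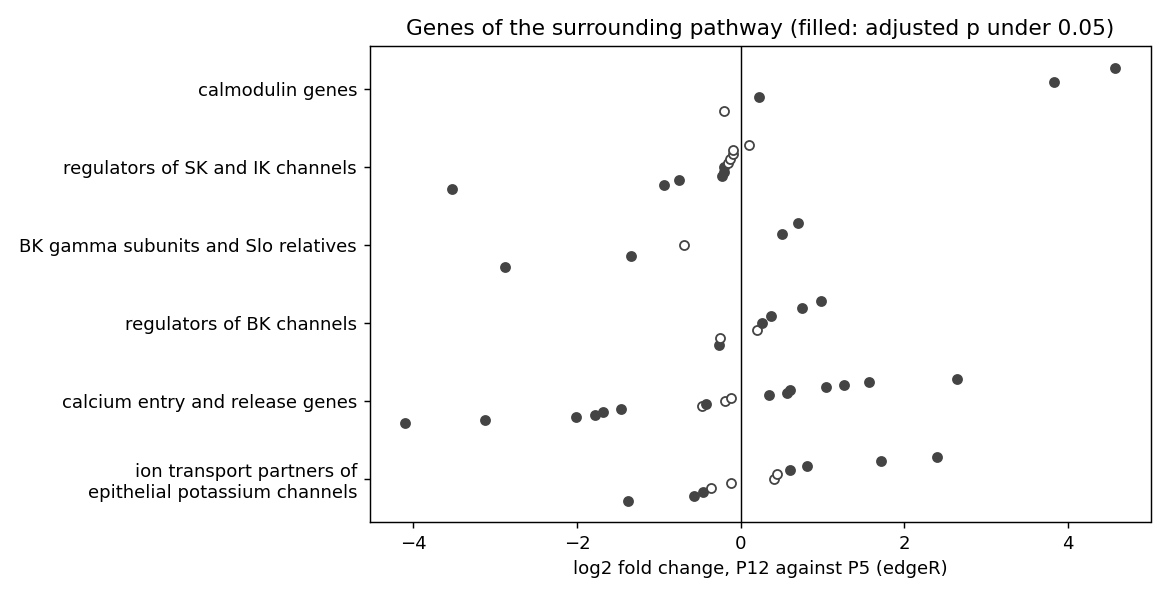
Log2 fold change of P12 against P5 for each tested gene of the lists around the channels, from edgeR, with filled points where the adjusted p was under 0.05. The calmodulin and calmodulin-like genes that passed lie to the right of 0, from Calm3 at 0.23 to Calml3 at 4.57. The regulators of SK and IK channels that passed lie to the left, down to -3.53, and the calcium entry and release genes lie on both sides.

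Finally, the 8-library pattern of each tested member, as log2 normalized counts less their mean, was compared with those of 11345 genes with a mean normalized count of at least 100. The patterns most like Kcnn4 were those of Kidins220, Enpp1 and Stk39, with root mean square differences of 0.12, 0.14 and 0.14 log2 units over the 8 libraries. Those most like Kcnmb2 were Gpnmb, Dmkn and Casp1, at 0.31, 0.33 and 0.36. For Kcnma1 they were Atg12, Cog2 and Usp7, at 0.05, 0.05 and 0.06, and for Kcnn2 they were Polq, Eef1akmt3 and Penk, at 0.40, 0.46 and 0.47. The nearest gene was Spef1 for Kcnn1 at 0.09, Gdpgp1 for Kcnn3 at 0.16 and Cep70 for Kcnmb4 at 0.16. These are descriptions with no test, and a pattern over 8 libraries of 2 ages is set mainly by the difference between the ages.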

How the data were processed

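Per the labels, polyadenylated RNA of dissected first molars was sequenced, after purification with TRIzol and a Zymo kit. The authors deposited read counts per gene as whole numbers without normalization, with gene lengths and GRCm38 coordinates. The submitters' processing notes name CASAVA and the build mm39, while the coordinates of all 8 members equal those in GENCODE M21 for GRCm38. The deposited length of Kcnn2 is 7321 bases, against 7468 exonic bases in GENCODE M21. The exons used for counting may therefore have differed for that gene. The aligner, the counting program and its use of strand are not given in the sources used here.

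Each column was assigned to a sample by its name. Genes were tested with edgeR 4.0.16 in R 4.3.3 (filterByExpr with a minimum count of 10, TMM, glmQLFit and glmQLFTest, no covariate), over 16440 genes at a threshold of 0.05. Standard errors are the log2 fold change divided by the root of the test's F. Normalized counts were scaled to the mean effective library size of 19006280. DESeq2 1.42.0, which the study used, limma-voom (limma 3.58.1), other scalings and filters, single libraries left out and a replicate block were alternatives, and the tools were tested on simulated data first. Single values were compared by two-sided exact permutation tests on log2 values with a pseudocount of 1 (scipy 1.17.1). Libraries are pools of different pups. Floors and counting intervals cover counting error only.

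All members were named. Of each list around the channels, the calmodulin genes and all gamma subunits and relatives of Kcnma1 were named, and of the others the 4 with the largest absolute log2 fold change past the threshold. The members and lists were chosen with earlier results of these data known. An item of one list is not reported here, and that list's counts leave it out. Promoter windows are from RefSeq, and all members but Kcnn2 were looked up there.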

Additional observations from a re-analysis of the deposited data

How the results depend on the processing

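Kcnn4 and Kcnmb2 stayed higher at P12 and past the threshold of 0.05 in every alternative fit that tested them, 18 for Kcnn4 and 17 for Kcnmb2, with log2 fold changes of 2.02 to 2.54 and of 3.72 to 4.30. The ratios of Kcnmb2 and of Kcnn4 to Kcnma1 and the share of Kcnn4 kept their direction in 9 of 9 alternatives each. With at least 10 counts in every library, 5 members were tested, and 1 was called higher and 1 lower, since Kcnmb2 and Kcnn2 were no longer tested. The number called lower (2) was 1 with total count scaling, 1 with no filter, 1 in the 6 libraries numbered 1, 3 and 4, 1 with a log2 fold change of at least 1 required and 0 at an adjusted p under 0.01. It lay between 1 and 3 without one library at a time.

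Under total count scaling, which called 8885 of all genes higher and 2330 lower against 4735 and 4676, Kcnma1 had a log2 fold change of 0.068 and Kcnn1 one of 0.74 that passed the test. Without the filter Kcnma1 was at -0.29 (adjusted p = 0.061). With any single library left out, values ran from -0.36 to -0.27 for Kcnma1, from -2.37 to -1.41 for Kcnn2, from -0.74 to -0.35 for Kcnmb4 and from -0.23 to 0.44 for the difference in the log2 ratio of Kcnmb1 to Kcnma1, which was -0.23 without P12 replicate 2. The cause was not tested.

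Libraries with the same replicate number did not deviate together (correlations of 0.04, -0.01 and -0.01 for numbers 1, 3 and 4). With the replicate number as a block over those 6 libraries, no member was called lower, with 0 against 1 without the block, while 2 were called higher. In that fit Kcnma1 was at -0.33 (adjusted p = 0.077) and Kcnn2 at -1.43 (adjusted p = 0.081), and with the 6 libraries and no block Kcnn2 was at -1.35 (adjusted p = 0.063). For the ratios, the exact permutation test of 3 libraries against 4 cannot reach the threshold, so that these alternatives were compared by value. Depth limits Kcnmb1, Kcnmb2 at P5 and Kcnn2 at P12, which had at most 20 counts in a library.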

Other observations

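Within each age, no library's value of a member or of a ratio lay far enough from the others to pass Dixon's 95% limit, in 26 groups checked. The remaining marker lists moved in both directions. Of 6 Schwann cell markers 3 were higher and 1 was lower at P12, and of 7 odontoblast and osteoblast markers 2 were higher and 2 were lower.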
